A study of Triticum aestivum with 4 samples.

Results

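Genes for kinases, phosphatases, phospholipases, calmodulin-binding proteins and the ubiquitin system were followed through lists of differentially methylated regions from wheat seedlings. Members were the listed regions whose gene description contained kinase, phosphatase, ubiquitin, F-box, RING as a whole word, phospholipase or calmodulin. Descriptions naming the chloroplast or mitochondria were to be left out, but none of the matching regions carried such a name. The rule found 40 regions of 38 genes among 3119 listed regions. Only 468 listed regions belonged to a gene with a description, so the members were 8.55% of the regions that the rule could reach. By sequence context there were 9 CpG, 19 CHG and 12 CHH member regions (H is any base but G).

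All seedlings came from the winter wheat breeding line SE15, a single genotype of hexaploid wheat, and seeds of both groups held 13.6% water and germinated in the dark at 20 °C. One group of 100 seeds was exposed, dry and in open dishes, to ultrasound of 30 kHz and 70 W for 5 min at a distance of 4 cm before germination, and the control group of 100 seeds was left untreated. Whole seedlings were taken on day 7, so the levels average over all cell types, a different level per cell and a different mix of cells cannot be told apart, and no marker in the lists can check the tissue. The labels name 2 control and 2 ultrasound libraries, while the protocols speak of 3 biological samples per group. The lists give levels for ultrasound library 1 and for a column headed K1, which was taken as control library 1 because the labels know no other group than control to set against ultrasound. With a single library on each side there is no replicate check and no test, and "lower" or "higher" compares these 2 libraries. The authors had selected the regions by comparing these libraries, so a difference at a listed region is not itself a result. Read depth is unknown.

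Protein kinases attach phosphate to other proteins and phosphatases remove it, and plants carry large families of both that relay signals from receptors at the cell surface. Lipid kinases and phospholipases make and break lipid messengers such as phosphatidic acid and the phosphoinositides. The ubiquitin system marks proteins for removal by the proteasome, with E2 conjugating enzymes that carry ubiquitin and E3 ligases, among them RING and F-box proteins, that choose the target. In plants, cytosine methylation in the symmetric CpG and CHG contexts is copied after replication, and asymmetric CHH methylation depends on renewed deposition, much of it guided by small RNAs. Methylation within or beside a gene does not by itself show how strongly the gene is expressed, and expression was not analysed here.

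Of the 33 member regions with a level in both libraries, 26 were lower in the ultrasound library and 7 higher. That is 78.8% lower (95% exact binomial interval 61.1 to 91.0, covering the counting of regions only), beside 76.8% of the 2705 listed regions with levels. Ultrasound minus control, the members had a median of -9.24 percentage points and all listed regions one of -10.1. For the 7 higher members the background share was 23.2%. Direction and median were thus close to those of the whole lists. A difference of at least 10 points was found for 20 of the 33 members. Lower by that much were 15 of 33, where the share of all 2705 listed regions with levels was 50.5%. Higher by that much were 5 of 33, where it was 18.6%. The other 13 members differed by less, 10 of them in CHG and 3 in CHH. Differences of at least 25 points were found for 2 of 33 members lower and 1 of 33 higher, with background shares of 11.3% and 5.88%.

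By context, 16 of 18 CHG members were lower, or 88.9% (65.3 to 98.6), beside 78.2% of all CHG regions. In CpG 4 of 6 members were lower, where the background was 71.7%, and in CHH 6 of 9, where it was 77.1%. Each of these member intervals included the share of the whole list. The median differences of members were -14.9 points in CpG, -7.40 in CHG and -10.1 in CHH, and those of all listed regions -18.3, -8.87 and -11.2. The order-statistic intervals of the member medians were -32.5 to 26.1 in CpG, the whole range of 6 regions, -13.9 to -4.73 in CHG and -11.0 to 9.97 in CHH. All of the member medians were nearer to 0 than those of the lists, and only in CHH did the list value lie outside the interval, by little. Described regions outside the rule had medians of -15.9 points in CpG, -7.88 in CHG and -11.3 in CHH. In CpG and CHG they too were thus nearer to 0 than the lists. Their shares lower were 62.1%, 80.0% and 74.5%, and over all contexts their median was -8.80 points.

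**Figure D1:**
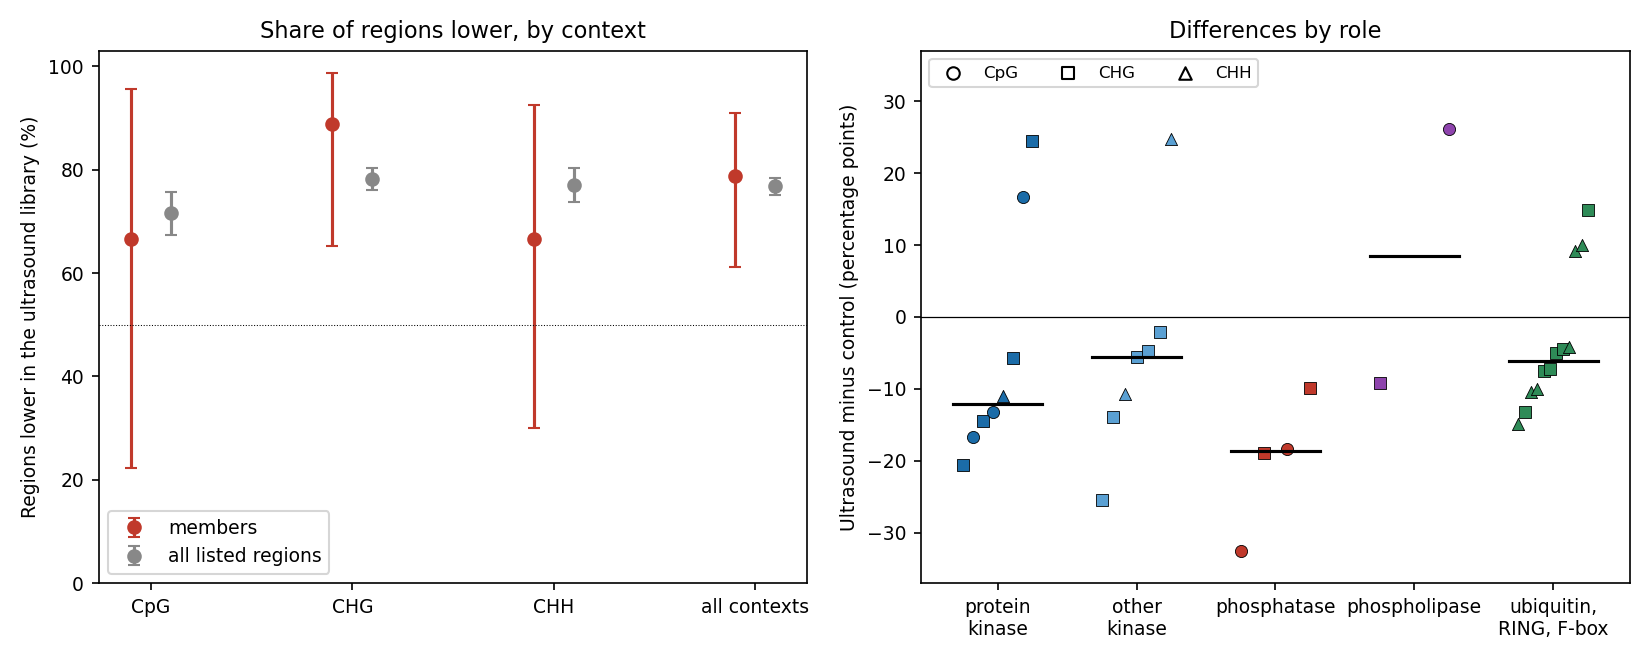
Left, share of regions lower in the ultrasound library (%, y axis) by context, for the members and for all listed regions; points are shares and bars 95% exact binomial intervals over regions, and the dotted line marks an even split. Right, difference of each of the 33 member regions (percentage points, y axis) by role; marker shape gives the context and the short line the median, and the 4 phosphatase regions all lie below 0.

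CHH members with both levels had a level near 0 in 1 of the libraries throughout. In the 6 lower CHH members levels ran from 4.17 to 15.8% in control and from 0 to 1.63% in ultrasound DNA. In the 3 higher ones they ran from 0.301 to 2.25% and from 9.48 to 27.0%. All 9 thus had a level under 2.5% in 1 library, a limit chosen after the values were seen, as had 89.2% of all listed CHH regions. In CHG, 7 of 18 members had such a level, or 38.9%, against 20.1% of the CHG list. In CpG it was 2 of 6 members, or 33.3%, against 23.5% of the CpG list. No test was applied to these differences.

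**Figure D2:**
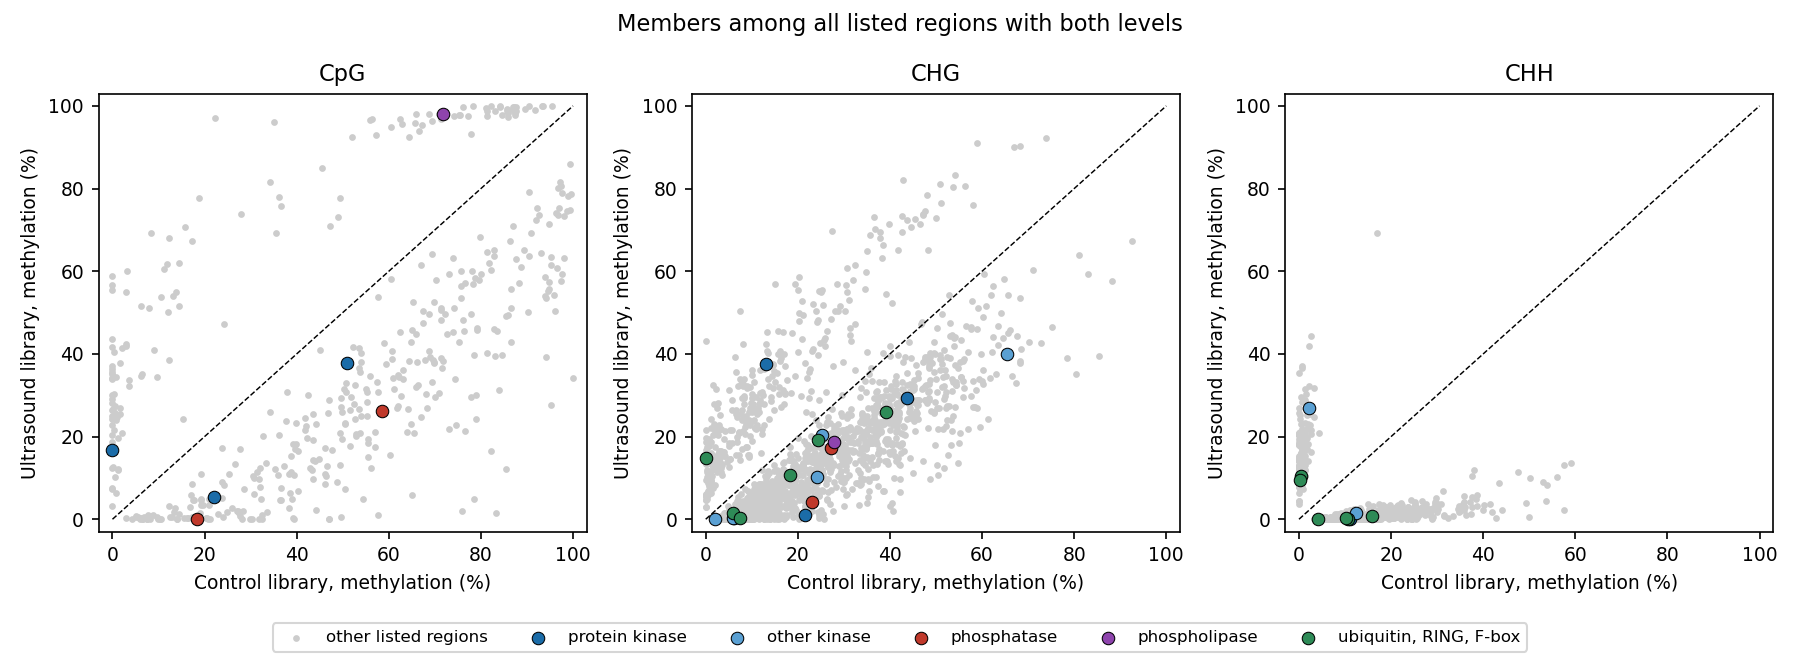
Methylation level in the ultrasound library (%, y axis) against the control library (%, x axis) for regions with both levels, 1 panel per context; grey points are the other listed regions, coloured points the members by role, and the dashed line marks equal levels. Nearly all CHH regions lie along the axes, with 1 library near 0, and the CpG member at 71.8% and 98.0% stands above the line at the upper right.

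Protein kinase genes held 11 regions, and 6 of the 8 with both levels were lower, or 75.0% (34.9 to 96.8) beside 76.8% of all listed regions, with a median of -12.1 points beside -10.1. The roles differed in their mix of contexts, so their medians cannot be compared directly. Of these 8 regions 3 were in CpG, 4 in CHG and 1 in CHH, where the list medians were -18.3, -8.87 and -11.2 points. Wherever a pair of levels is given from here on, the control library comes first. The largest decrease lay over a serine/threonine-protein kinase gene on chromosome 1B (TraesCS1B02G372500; 603145487 to 603147788), at 21.6% in control and 1.06% in ultrasound DNA in CHG. A kinase gene on 2A of the same description (TraesCS2A02G051200; 19944692 to 19945718) was the opposite, with CHG levels of 13.0% and 37.5% over the gene. Its difference of 24.5 points ranked 73rd from the top among 1557 CHG regions. Among kinases with a more specific name, a mitogen-activated protein kinase gene (TraesCS1D02G422800), of the family that ends the MAP kinase cascade, had a CHH region 545 bp downstream at 11.1% and 0.128%. RIO1 (TraesCS2A02G223900), an atypical kinase known in yeast and humans for maturation of the small ribosomal subunit, was listed at 0% in control and 16.7% in ultrasound DNA in CpG over the gene (2A, 221079143 to 221080004).

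The remaining protein kinases with both levels were all lower. In CpG, TraesCS2D02G536400 was at 22.0% and 5.34% in a region 1510 bp downstream, and TraesCS1A02G080600 at 50.9% and 37.7% over the gene. In CHG, TraesCS2D02G155700 was at 43.7% and 29.2%, and TraesCS3A02G323400, with a region 35 bp upstream of the gene, at 6.03% and 0.375%. The ultrasound level was 66.8% of the control level at TraesCS2D02G155700 and 6.21% of it at TraesCS3A02G323400. Another 3 protein kinase regions lacked a level. A CHH region 628 bp downstream of TraesCS2B02G533400 was at 25.5% in the control library. PBL15 (TraesCS6A02G024300), named after an Arabidopsis receptor-like cytoplasmic kinase, was listed at 0% in the ultrasound library in CpG. The calmodulin-binding receptor-like cytoplasmic kinase 1 gene (TraesCS6D02G383700), the only member matched by calmodulin, was at 1.18% in the ultrasound library in CHH, so nothing can be said about its direction.

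Genes of lipid signalling went both ways. Diacylglycerol kinase converts diacylglycerol to phosphatidic acid, and the gene on 1A (TraesCS1A02G235100) had the largest CHG decrease among the members, from 65.3% in the control library to 39.9%, in a region 524 bp upstream (1A, 415585903 to 415587513). A CpG region overlapping it by 1207 bp was at 26.5% in the ultrasound library, with no control level. The diacylglycerol kinase gene on 6B (TraesCS6B02G381300) differed by much less, at 25.2% and 20.5% in CHG over the gene. Phospholipase D makes phosphatidic acid by another route, from membrane phospholipids. Its gene on 5A (TraesCS5A02G202000) had the largest increase among the members, 26.1 points, with CpG levels of 71.8% and 98.0% in a region 1754 bp upstream (5A, 408844912 to 408845209). That difference ranked 72nd from the top among 480 CpG regions. A further gene described only as phospholipase (TraesCS1A02G228300) was at 27.9% and 18.7% in CHG, 209 bp upstream. The upstream regions of the 1A kinase and of phospholipase D, both at genes whose products make phosphatidic acid, therefore differed in opposite directions, though in different contexts.

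The pair of phosphoinositide kinases also differed in direction within CHH. VPS34 (TraesCS5A02G054400), the phosphatidylinositol 3-kinase of endosomal sorting and autophagy, was at 2.25% in control and 27.0% in ultrasound DNA in a region 956 bp downstream (5A, 51205817 to 51206560). That difference of 24.7 points ranked 18th from the top among 668 CHH regions. Phosphatidylinositol 4-phosphate 5-kinase (TraesCS4A02G271600), which makes the phosphoinositide that phospholipase C splits, was at 12.3% and 1.63% in a region 2270 bp downstream.

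The other 3 kinase regions, all in CHG and described together here only by what the enzymes act on, sugars and a vitamin, were lower, as were 78.2% of all CHG regions. The pfkB-like carbohydrate kinase gene (TraesCS5D02G069700), whose named Arabidopsis counterpart is a pyridoxal kinase of vitamin B metabolism, was at 24.1% and 10.2% over the gene. Ribokinase, which phosphorylates ribose, was listed for a gene on 3A and one on 3D that carry the same number (TraesCS3A02G242400 and TraesCS3D02G242400). Both had low levels upstream, at 2.04% and a listed 0% for the 3A gene and at 5.97% and 0.346% for the 3D gene. The 3A difference of -2.04 points was the smallest of all members.

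Phosphatase genes were lower in each of the 4 regions with both levels, with a median of -18.7 points. Of these regions 2 were in CpG and 2 in CHG, where the list medians were -18.3 and -8.87 points. So few regions allow a share lower anywhere from 39.8% to 100% (exact binomial interval), which includes the 76.8% of all listed regions. Purple acid phosphatase (TraesCS5D02G449800), of a family that releases phosphate from organic compounds, had the largest decrease of any member, with 58.6% in control and 26.1% in ultrasound DNA in CpG over the gene (5D, 498556775 to 498557499). That decrease ranked 91st from the lowest among 480 CpG regions. The structural subunit of protein phosphatase 2A (TraesCS5D02G172700), the scaffold on which the catalytic and regulatory subunits assemble, was at 23.0% and 4.15% in CHG over the gene (5D, 269742282 to 269743614). A serine/threonine-protein phosphatase gene on 5B (TraesCS5B02G464000) was at 18.4% in control and listed at 0% in ultrasound DNA in CpG, and an overlapping CHH region had only an ultrasound level, 1.09%. Cytosolic fructose bisphosphatase (TraesCS3B02G410400), an enzyme of sucrose synthesis, was at 27.2% and 17.3% in CHG. A region over the neighbouring gene of a VAMP-like protein, 3728 bp away, went the other way in the same context, at 11.7% and 29.0%.

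**Figure D3:**
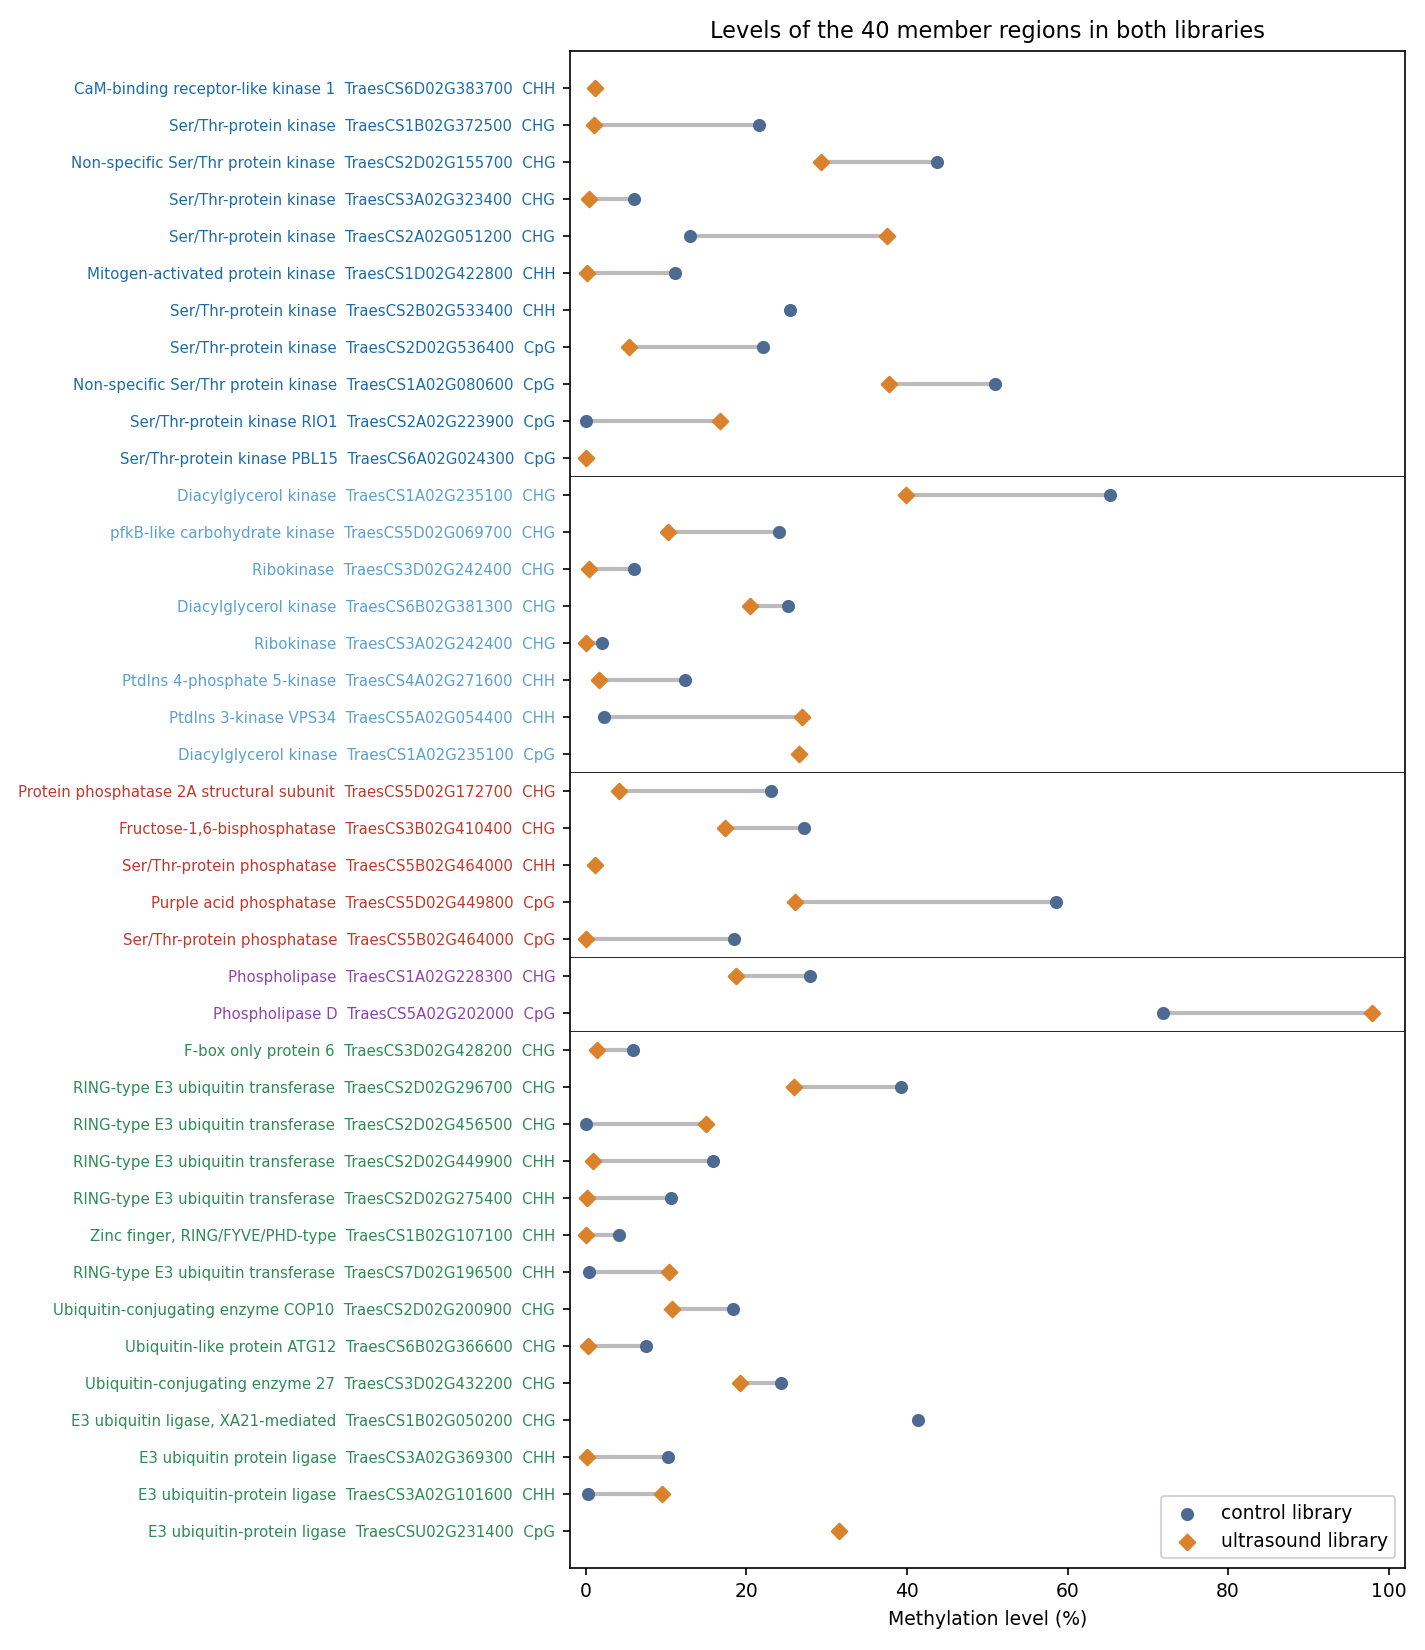
Methylation level (%, x axis) of all 40 member regions, with the gene's description, identifier and context on the y axis, coloured by role in blocks from protein kinases at the top to the ubiquitin system at the bottom. Circles are the control library, diamonds the ultrasound library, and 7 regions have only 1 of them; most diamonds lie to the left of their circle.

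Of the 14 regions of the ubiquitin system, 12 had both levels, with 9 lower and 3 higher. That is 75.0% lower (42.8 to 94.5) beside 76.8% of all listed regions, and the median was -6.14 points beside -10.1. All 12 were in CHG or CHH, where the list medians were -8.87 and -11.2 points, against -18.3 in CpG. The differences of this role ran from -14.9 to 14.9 points, and none of the 3 members that differed by 25 points or more belonged to it. Such differences were uncommon in these contexts. In the CHG list 84 of 1557 regions were lower and 68 higher by that much, and in the CHH list 64 and 16 of 668. In the CpG list it was 157 and 75 of 480. The E2 genes were lower in CHG over the gene. COP10 (TraesCS2D02G200900), an E2-like protein that in Arabidopsis represses light-dependent development in dark-grown seedlings, was at 18.3% and 10.8%, and ubiquitin-conjugating enzyme 27 (TraesCS3D02G432200) at 24.3% and 19.2%. ATG12 (TraesCS6B02G366600), a ubiquitin-like protein that is conjugated to a partner during autophagy, was at 7.48% and 0.238% in a region 143 bp upstream (6B, 639158585 to 639160550).

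Genes with RING in their description held 6 regions of 6 genes, with 4 lower and 2 higher, or 66.7% lower (22.3 to 95.7), near the 76.8% of all listed regions. Upstream of TraesCS2D02G449900 CHH methylation was 15.8% in control and 0.891% in ultrasound DNA, the largest decrease of the role. Over TraesCS2D02G275400 it was 10.6% and 0.170%. In CHG, a region upstream of TraesCS2D02G296700 was at 39.2% and 25.9%, while one over TraesCS2D02G456500 was listed at 0% in control and 14.9% in ultrasound DNA. The other increase was a CHH region 2040 bp downstream of TraesCS7D02G196500, at 0.436% and 10.4%. A zinc finger gene of the RING/FYVE/PHD type (TraesCS1B02G107100), which need not be a ligase, was at 4.17% and a listed 0% in CHH. Of the 6 RING regions 4 lay on chromosome 2D, which held 7 of all 40 members, or 17.5%, and 6.09% of all listed regions.

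A pair of E3 ubiquitin ligase genes on 3A had CHH regions at nearly the same distance downstream, 612 and 667 bp, and nearly mirrored levels. TraesCS3A02G369300 was at 10.2% in control and 0.185% in ultrasound DNA, and TraesCS3A02G101600 at 0.301% and 9.48%. F-box only protein 6 (TraesCS3D02G428200), of the family that brings targets to SCF ligases, was at 5.92% and 1.45% in CHG over the gene. A ligase gene whose description refers to resistance mediated by XA21, a rice immune receptor (TraesCS1B02G050200), was at 41.3% in the control library in CHG, with no ultrasound level. The ligase gene TraesCSU02G231400 on unplaced sequence was at 31.5% in the ultrasound library in CpG, with no control level, over 5960 bp, the longest member region.

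Member regions lay over their gene in 17 cases, upstream in 12 and downstream in 11. Of the CHH members 9 of 12, or 75.0%, were downstream, beside 38.8% of all CHH regions. All 7 upstream CHG members were lower (interval 59.0 to 100%), beside 73.3% of all upstream CHG regions, in regions of kinase, phospholipase, RING and ATG12 genes. In CHH the 3 higher members were all downstream, where 3 others were lower. In the whole CHH list 71 of 153 higher regions were downstream. By subgenome, 7 of 12 members with levels were lower on A, 6 of 6 on B and 13 of 15 on D. The shares of all listed regions were 78.1%, 74.8% and 78.1%, each within the interval of the members (27.7 to 84.8 on A, 54.1 to 100 on B and 59.5 to 98.3 on D). None of these splits was tested, and each rests on few regions. The 2 genes with more than 1 member region were the diacylglycerol kinase on 1A and the phosphatase on 5B, and neither had both levels in more than 1 context. Only 5 members had another listed region within 10 kb, or 12.5%, against 22.4% of all listed regions, so the member regions were mostly single loci.

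**Figure D4:**
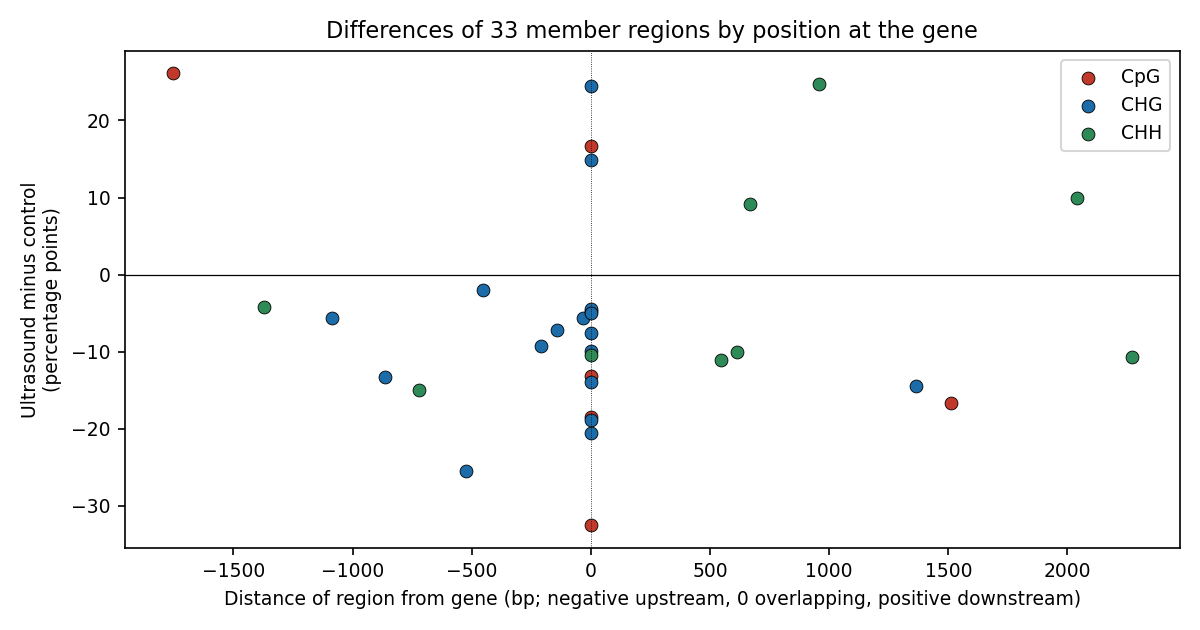
Difference between the libraries (percentage points, y axis) against the distance of the region from its gene (bp, x axis; negative upstream, 0 overlapping, positive downstream) for the 33 members with both levels, coloured by context. Upstream of the gene only the CpG region of phospholipase D lies above 0.

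Among genes of neighbouring pathways outside the rule, the shares lower had intervals that included the 76.8% of all listed regions. A signalling list (words such as GTP, calcium, receptor and G-protein) held 15 regions, of which 10 of 12 with levels were lower, or 83.3% (51.6 to 97.9), with a median of -7.50 points. Its largest decrease was a regulator of G-protein signalling (TraesCS2D02G435300), at 51.5% and 21.9% in CHG, and its largest increase Rab18s (TraesCS2D02G567100), at a listed 0% and 18.3% in CHH. A protein turnover list (words such as proteasome, cullin, protease and autophagy) held 20 regions, of which 16 of 18 were lower, or 88.9% (65.3 to 98.6), with a median of -12.3 points beside -10.1 for all listed regions. Of these, 7 carried the name of the Clp protease proteolytic subunit, a form of which the plastid genome encodes, and all 7 were lower (interval 59.0 to 100%, which also includes 76.8%). Without them 9 of 11 were lower, with a median of -7.46 points. The largest decrease of the turnover list was a Clp subunit gene (TraesCS1A02G111400), at 49.9% and 25.8% in CpG. All 4 regions of proteasome subunit genes with both levels were lower (interval 39.8 to 100%, which includes 76.8%), from -23.7 to -4.40 points. The largest increase was ATG7b (TraesCS3D02G231900), named for the enzyme that activates ATG12, at 28.5% and 57.0% in CHG in a region 2316 bp upstream.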

How the data were processed

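Genomic DNA of seedlings was converted enzymatically for methyl-seq, per the labels' protocols, although the library titles read WGBS. The tools named, without roles, per the submitters' processing notes are Bismark 0.23.1, edgeR, FastQC 0.11.9 and Trim Galore 0.6.7. A column heading in the deposited lists also names Chi and EdgeR together, read here as selection by a chi-square test and by edgeR. The authors deposited lists of regions for CpG, CHG and CHH with a methylation level in percent per library; the build, coverage, thresholds and definition of a region were not given in the sources used here. How reads shared by the near-identical A, B and D copies of a gene were placed is not stated. Coordinates are those of the lists. None of the 38 member identifiers matched the reference gene table, so no sequence is shown.

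Differences (ultrasound minus control, percentage points) were taken over regions with both levels, which left out 7 of 40 members and 414 of all 3119 regions. Of these members 5 lacked only the control level and 2 only the ultrasound level. Of all listed regions 260 lacked only the control level, 49 only the ultrasound level and 105 both. The shares lower do not cover these regions. Shares carry exact (Clopper-Pearson) and medians order-statistic 95% intervals (scipy 1.17.1, pandas 2.3.3). Both were tried on simulated independent normal values in samples of 33 only, not in the smaller sizes of the splits or on selected regions. They treat regions as independent and cover counting over regions only. With 1 library per group no test was run. Calls were differences of at least 10 points; 25 points marked large ones.

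The members and lists were chosen with earlier results of these data known. Roles followed words in the descriptions; a serine/threonine-protein phosphatase that also matched a word for protein kinases was kept with the phosphatases. Named regions were the 3 largest differences per role and direction, all of small roles, those of at least 25 points and the 2 smallest; the rest were added to account for every member. No gene had both levels in more than 1 region. In the neighbouring lists the rule named the largest difference in each direction; the Clp and proteasome subsets were picked after their values were seen. Alternatives were minimum differences, each gene or locus once, regions over genes, no regions at 0, no metabolic enzymes, and means. The enzymes left out as metabolic were ribokinase, the pfkB-like kinase, fructose bisphosphatase and purple acid phosphatase. The diacylglycerol and phosphoinositide kinases, described above under lipid signalling, were left out with them.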

Additional observations from a re-analysis of the deposited data

How the results depend on the processing

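The share of members lower ranged from 65.0% to 82.5% over its 9 alternatives and stayed above an even split. Of 66 alternative values in all, 59 stayed within the interval of the value as reported, but many of them could not leave it. Counting each gene or each locus once changed no value, because no members with both levels in a context shared a gene or locus. The interval of the CpG median was the whole range of its 6 regions, so no subset or mean could fall outside it. The count is therefore no measure of robustness. With only differences of at least 10 points the median of all members was -13.2 points and that of CHG members -14.2, and with at least 25 points both were -25.5, as a minimum difference must do to a median. The CHG share lower was then 100%, from 1 region, and the CHH share was 100% among regions overlapping their gene, also 1 region. Counting the 7 members without both levels as not lower, an alternative added after the data were seen, put the CpG share at 44.4%, below an even split, from 9 regions of which 3 lacked a level. In CHH the same count gave 50%. The means were closer to 0 than the medians, at -5.57 points over all members and -1.93 in CHH. No paired analysis was possible because levels of only 1 library per group were analysed here, and for the same reason no replicate could be left out. Depth is unknown, so levels listed at 0 have no limit of detection.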

Other observations

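Besides VPS34 and ATG12, ATG7b and ATG18a also belonged to the autophagy machinery among the genes of the member and turnover lists, a grouping made after their values were seen. VPS34 and ATG7b were higher in the ultrasound library, by 24.7 points in CHH and 28.5 points in CHG, and ATG12 and ATG18a were lower. ATG18a (TraesCS3B02G490900), of a family that binds the phosphoinositide made by VPS34, was at 31.6% in control and 25.3% in ultrasound DNA in CHG over the gene. These regions lie in different contexts and positions, and no test was run on them.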
